A study of Rattus norvegicus with 47 samples.

Results

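Lung tissue and whole blood were compared in rats that breathed filtered air and were killed 1 day after the end of exposure. The comparison uses 12 of the 47 libraries of the series, chosen as every library labelled air at 1 day: 6 of lung and 6 of blood. The animal numbers 37 to 42 stand in the titles of both tissues, so each animal appears to have given 1 library of each. All 6 animals were male rats of the inbred Fischer 344 strain, and their age is not given in the sources used here. In the study they serve as the unexposed side of a whole-body inhalation experiment with crystalline silica, and they breathed filtered air for 6 h on each of 5 days. Neither tissue of these animals met silica. The comparison describes which genes each tissue expresses in unexposed rats, which are restricted to 1 of the tissues and which are shared.

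The lung is an epithelial gas exchange surface laid over a dense capillary bed. Its alveoli are lined by flat type 1 cells, across which gas diffuses, and by type 2 cells, which make surfactant, the lipid and protein film that lowers surface tension. Club and ciliated cells line the airways, and endothelial cells, fibroblasts, smooth muscle and resident macrophages make up most of the rest. Whole blood carries leukocytes, platelets and red cells. Mature mammalian red cells and platelets have no nucleus, so the erythroid and platelet RNA in blood was transcribed earlier, in their precursor cells. Young red cells (reticulocytes) hold most of the erythroid part.

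The handling of the tissues differed. Lung RNA came from a kit for fibrous tissue, and blood RNA from a separate kit after storage in a preservative, with alpha and beta globin mRNA then removed. Each tissue has its own count table. Tissue, kit, globin removal and table cannot be told apart in any value below. In such bulk samples, fewer cells of a type and less RNA per cell cannot be told apart either. Whether the lungs were rinsed of blood is not given in the sources used here.

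Library totals ran from 12050300 to 25876000 estimated counts in lung and from 12908100 to 16895800 in blood. The lung library of animal 42 was the deepest and stood apart from the other 5 lung libraries. The blood library of animal 40 stood apart in 8 of the named genes, erythroid and leukocyte genes among them, and those of animals 37 and 40 were high in the beta globin gene Hbb. Values without them are given where a result rests on them. Spearman correlations across 10420 genes were 0.989 to 0.996 between lung libraries, 0.988 to 0.993 between blood libraries and 0.607 to 0.642 between a lung and a blood library. Genes are not independent replicates, and the libraries of a tissue share kit and table, so these values describe the libraries.

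Levels are given as scaled CPM, counts relative to the library total, with each library's total multiplied by its TMM factor. TMM factors set the bulk of genes to equal levels between libraries. They were 1.4699 to 1.5134 in lung and 0.560 to 0.734 in blood. A library total without a factor moved the median gene 1.15 toward lung on the log2 scale (2.22-fold). Directions that turn under that scaling are named where they occur. Values in CPM are not divided by gene length, so levels of different genes are not compared.

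Most genes tested differed between the tissues. Of 30045 genes in both tables, 7829 had no count in any of the 12 libraries and 15260 passed the filter on low counts. In edgeR's quasi-likelihood test, 13516 of these (88.6%) had an adjusted p below 0.05. Of the genes tested, 7693 (50.4%) were higher in lung and 5823 (38.2%) were higher in blood. The 2 sets of 6 libraries did not overlap for 11957 genes (78.4%). Against a 2-fold change, 4969 genes (32.6%) were higher in lung and 2814 (18.4%) in blood. The split rests on the scaling: lung held 56.9% of the calls with TMM and 83.2% (11823 against 2383) with library totals. The median log2 fold change over all genes tested was 0.22 with TMM and 1.371 with totals. Every count of list members below should be read against 50.4% and 38.2%.

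**Figure D1:**
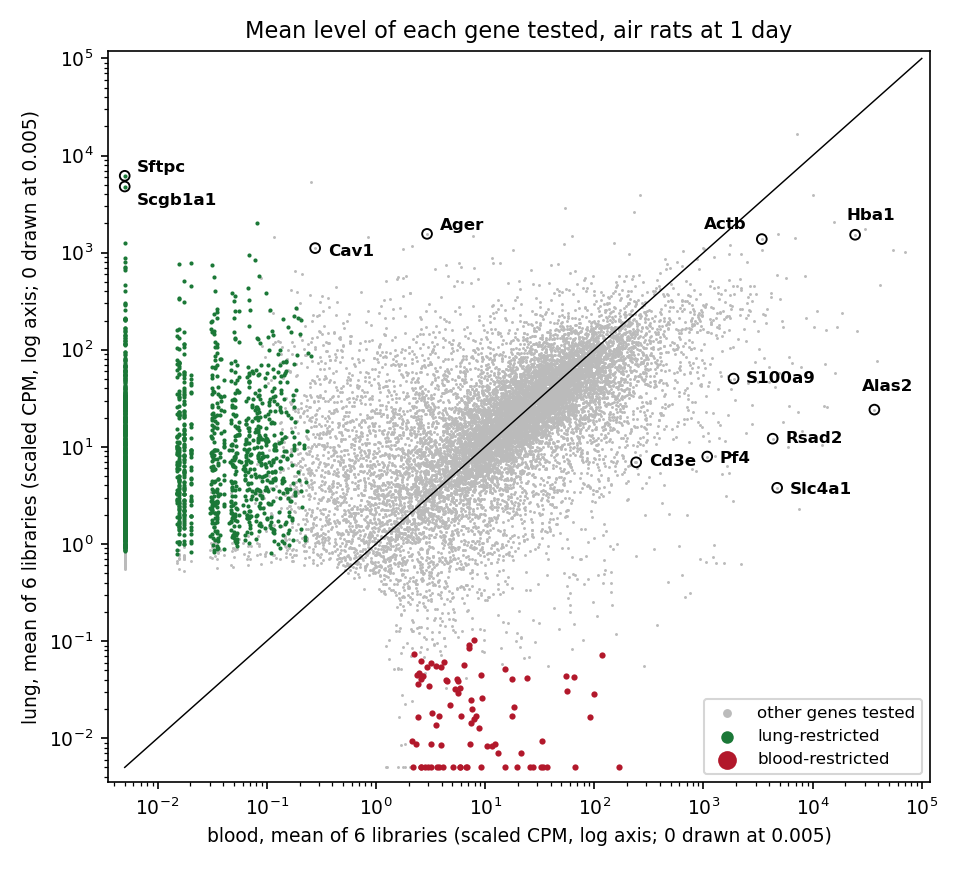
Mean level of each of the 15260 genes tested in blood (x axis) and lung (y axis), both in scaled CPM on log axes over 6 libraries, with 0 drawn at 0.005. Green points are the lung-restricted genes and red points the blood-restricted genes. Sftpc and Scgb1a1 sit on the left edge because all 6 blood libraries had 0 counts.

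Blood RNA was concentrated in few genes. The 10 genes with the most counts held 23.7% ± 1.51 of the counts in blood and 7.53% ± 0.266 in lung (SD, n = 6 each), and the top 100 held 51.5% ± 2.84 and 18.8% ± 0.311. Genes other than globin on the erythroid list took 5.79% ± 0.397 of blood counts and 0.0556% ± 0.000963 of lung counts. Globin genes took 2.70% ± 0.743 in blood after their removal step and 0.533% ± 0.0589 in lung. The 2 mitochondrial ribosomal RNA genes in the tables took 2.56% ± 0.206 in blood and 0.0472% ± 0.00859 in lung. Lung libraries held 14753 ± 89.7 genes at 1 CPM or more, and blood libraries 11614 ± 88.7, with CPM taken from library totals without TMM factors. The tissues did not overlap in any of these 6 measures. In a two-sided exact permutation test that did not keep the animal pairing, p was 0.00216 each, the smallest that 6 against 6 can give. The adjusted p of that test was 0.00253 over 7 measures. Total counts, the seventh measure, overlapped (exact permutation p = 0.764).

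A gene was called lung-restricted when all 6 lung libraries held at least 10 counts and 1 CPM and no blood library held more than 3 counts, and blood-restricted by the reverse. By this rule 1752 genes were lung-restricted and 85 were blood-restricted. The lung-restricted genes held 9.37% ± 0.132 of lung counts and 0.0038% of blood counts, and 817 of them had 0 counts in all 6 blood libraries. The blood-restricted genes held only 0.0918% ± 0.00703 of blood counts, and 22 had 0 counts in all lung libraries. Gene models with a locus name in place of a symbol made up 264 of the lung set and 61 of the blood set. Many genes that define blood cells had some counts in lung and so fell outside the blood set. Hemgn, Kel and Rhd, all erythroid genes, had 94, 49 and 107 lung counts in all, against 91865, 44799 and 71826 in blood. Of the lung set 94 genes stand on a cell type or pathway list, and of the blood set 1 (Gata1). The file holds 2 gene models of Gata1, and both together had 35 lung counts, so that Gata1 falls outside the rule when they are summed.

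The 10 largest fitted fold changes toward lung were taken among genes with a symbol, a mean of at least 50 CPM and non-overlapping groups. These genes had no count in any blood library, so their order depends on the fit. Gene models with a locus name were left out, LOC102553715 among them, with a mean of 1068 CPM in lung and 0 in blood. Sftpc, which encodes surfactant protein C of type 2 cells, stood at 5824 to 6968 (median 5961) scaled CPM in lung. Set against a floor of 3 counts per library it was at least 20261-fold higher in lung. Scgb1a1, the secretoglobin of club cells, stood at 3710.0 to 6136 (median 4711) and was at least 15717-fold higher. By the same floor Slc34a2, the phosphate transporter of type 2 cells, was at least 4069.7-fold higher, and Cldn18, a tight junction claudin of the alveolar epithelium, at least 2277-fold. Mfap4, a protein of elastic microfibrils, was at least 2892-fold higher and Postn, a secreted matrix protein, at least 1306-fold. The cytochromes P450 Cyp2b1 and Cyp4b1 were at least 2153-fold and 1504-fold higher, Sec14l3 at least 2643-fold and the water channel Aqp5 of type 1 cells at least 981-fold. All 10 had a clear level in every lung library, but the rule asked for groups that do not overlap. Agreement among the animals is therefore no separate result.

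Some endothelial genes were also lung-restricted, among them 5 of the 19 genes on the endothelial list. Ace, Ptprb and Limch1 are not on that list and were named for their high level among lung-restricted genes. Ace, the angiotensin-converting enzyme carried by lung endothelium, stood at 737 to 844 (median 776) scaled CPM in lung with 1 count in all of blood, a ratio of 46754-fold (95% counting interval 8391 to 1846680). Ptprb, the endothelial tyrosine phosphatase, stood at 800.3 to 1037 (median 974) in lung and had 4 counts in blood (log2 13.63 ± 0.17). No cell type is assigned here to Limch1. It stood at 738 to 804 (median 774) in lung with 1 blood count, a ratio of 45956-fold (95% counting interval 8248 to 1815160).

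The blood-restricted genes with a symbol were a mixed set. Gata1, the master transcription factor of red cells and megakaryocytes, stood at 131 to 297 (median 139) scaled CPM in blood and 0 counts in lung, at least 1256-fold higher in blood. That 0 belongs to 1 of 2 gene models of the name: with both models summed, lung held 35 counts against 13379 in blood (log2 -9.80 ± 0.20, adjusted p = 3.80e-16). Bpifa6 stood at 29.9 to 43.5 (median 36.2) in blood and was at least 274-fold higher, and the peptidoglycan recognition gene Pglyrp3b at 13.1 to 19.8 (median 14.04) and at least 115-fold. Pklr, the pyruvate kinase of liver and red cells, had 462 counts in blood against 2 in lung, a ratio of 563-fold (95% counting interval 156 to 4650.4). Tspo2, a mitochondrial translocator relative known from erythroid cells, had 483 against 2, a ratio of 588-fold (95% counting interval 163 to 4852). Stra8, known for the entry of germ cells into meiosis, had 1263 counts in blood against 1 in lung, a ratio of 3067-fold (95% counting interval 550.4 to 121130). Gfap, known as the intermediate filament of astrocytes, stood at 5.8 to 8.67 (median 7.28) in blood and had 13 counts in lung (log2 -6.16 ± 0.19). Paqr9 stood at 19.9 to 32.5 (median 23.0), Hist1h2an at 5.11 to 8.8 (median 7.21) and the pseudogene Isca1-ps1 at 5.01 to 14.4 (median 8.78).

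All 12 alveolar type 2 genes were called higher in lung, with a median log2 fold change of 7.78, against 0.22 over all genes tested. Besides Sftpc, the surfactant protein genes Sftpa1 and Sftpb stood at 4931 to 6108 (median 5059) and 1802 to 2229 (median 1991) scaled CPM in lung, with 15 and 5 counts in all of blood (log2 14.32 ± 0.20 and 14.43 ± 0.16). Sftpd, a collectin, was measurable in blood at 2.71 to 4.55 (median 3.38) and stood at 606 to 809 (median 659.9) in lung (log2 7.62 ± 0.12, adjusted p = 3.22e-17). Type 2 genes split into those near 0 in blood and those clearly present there. Napsa, an aspartic protease that processes surfactant protein B, stood at 273 to 345 (median 289) in lung and 219 to 294 (median 236) in blood, the only member of the list whose groups overlapped (log2 0.29 ± 0.078, adjusted p = 0.00303). Abca3, the lipid transporter of lamellar bodies, stood at 35.6 to 49.8 (median 43.8) in blood and 363 to 428 (median 378) in lung, and the acyltransferase gene Lpcat1 at 27.5 to 37.0 (median 31.6) and 285 to 364 (median 294). The summed level of the list in blood was 1.93% ± 0.116 (SD, n = 6) of that in lung.

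The 11 alveolar type 1 genes were likewise all called higher in lung (median log2 11.01, or 10.47 with genes at 0 in blood set to their bound). Ager, the receptor for advanced glycation end products and a defining gene of type 1 cells, stood at 1402 to 1817 (median 1533) in lung and 2.27 to 3.81 (median 2.92) in blood (log2 9.06 ± 0.12, adjusted p = 8.50e-18). Cav1, which coats the caveolae of type 1 and endothelial cells, stood at 1065 to 1169 (median 1103) in lung and 0.0943 to 0.544 (median 0.25) in blood (log2 11.89 ± 0.14). Hopx was the exception in size. It stood at 347 to 417 (median 362) in lung and 191 to 223 (median 202) in blood, so that lung was under 2-fold higher (log2 0.85 ± 0.055), although the groups did not overlap.

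**Figure D2:**
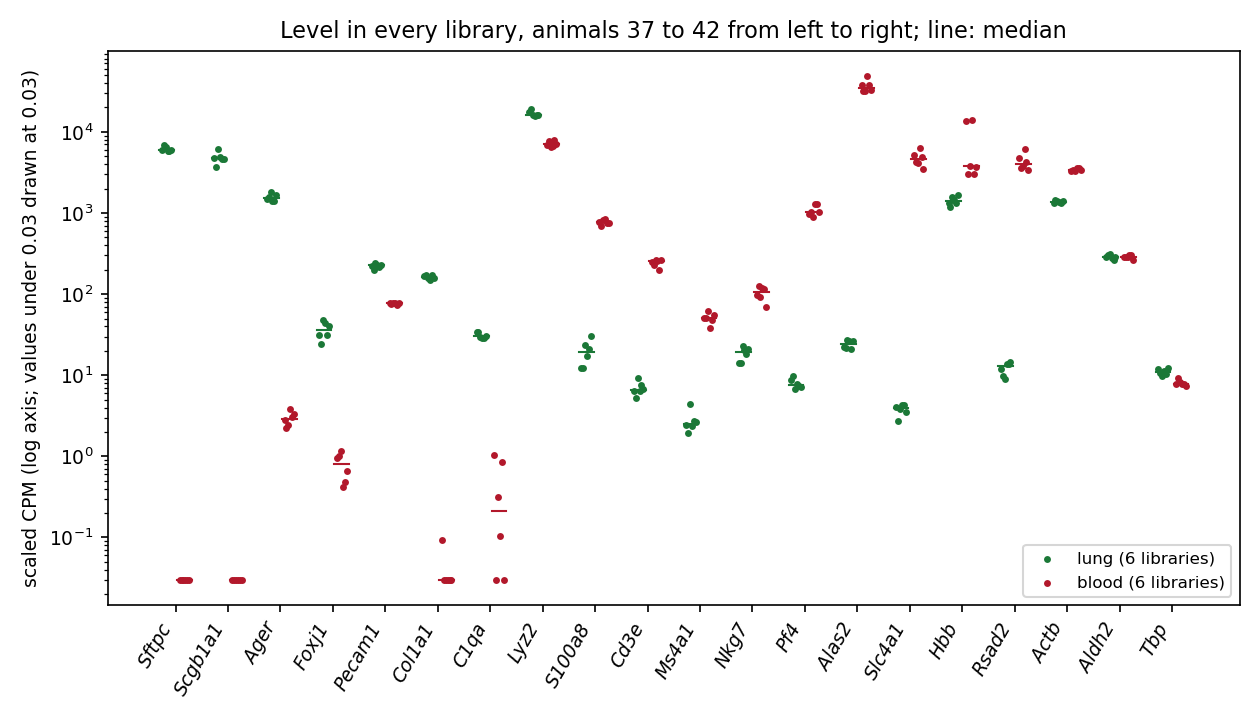
Level of 20 genes in every lung (green) and blood (red) library in scaled CPM on a log axis, animals 37 to 42 from left to right within each cluster of points, with the median as a line and values under 0.03 drawn at 0.03. Sftpc and Scgb1a1 lie at 0 in all blood libraries, Alas2 and Slc4a1 lie far higher in blood, and Aldh2 lies at the same level in both tissues.

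Airway genes were called higher in lung without exception: 7 of 7 secretory genes tested and 12 of 12 ciliated genes. Of 11 secretory genes, 4 did not pass the filter on low counts, the mucin gene Muc5ac among them with 7 lung counts in all. Scgb3a2 stood at 32.6 to 62.6 (median 47.9) in lung and 0 in blood, and Aldh1a1, a retinal dehydrogenase, at 278 to 338 (median 319) in lung with 26 blood counts (log2 9.46 ± 0.13). Foxj1, the master regulator of motile cilia, stood at 24.4 to 47.9 (median 35.7) in lung and 0.423 to 1.15 (median 0.804) in blood (log2 5.51 ± 0.24, adjusted p = 4.75e-12). Dnah9, an axonemal dynein, stood at 21.1 to 38.8 (median 30.8) and had no blood count. Tppp3, a tubulin polymerisation protein, stood at 459.9 to 512 (median 484) in lung and 5.71 to 9.52 (median 7.32) in blood (log2 6.00 ± 0.094).

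Some airway genes varied widely among the lungs while the type 2 gene Sftpc did not. Muc5b, the main mucin of the small airways, stood at 1.71, 1.72, 11.3, 8.45, 2.87 and 9.56 in animals 37 to 42, and Bpifa1 at 0.0835, 0.731, 23.1, 6.16, 1.34 and 40.0. Animals 39, 40 and 42 were the high ones for both. The heart muscle genes followed the same animals: Myh6, the atrial myosin heavy chain, stood at 0.0835, 9.75, 53.0, 55.1, 3.27 and 53.6, and the sum of the 8 genes on the heart muscle list at 9.35, 35.4, 142, 144, 16.6 and 144. Sftpc gave no such split, at 5922, 6968, 6548, 5846, 5824 and 6001 in the same order. The source of these genes, such as a part of the heart or of larger airways in the samples, was not tested.

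The epithelial junction and keratin list (12 of 12 higher in lung) and the mesothelial list (5 of 5) followed the alveolar lists. Cdh1, the cadherin of epithelial junctions, stood at 187 to 199.7 (median 190.1) in lung and 0.482 to 0.952 (median 0.871) in blood (log2 7.86 ± 0.076), and Krt19 at 189 to 216 (median 206) with no blood count, at least 668-fold higher. Cldn4 differed least, at 3.26 to 4.32 (median 4.16) in lung and 1.08 to 3.32 (median 2.47) in blood (log2 0.77 ± 0.18). Msln, a surface protein of mesothelium, stood at 21.1 to 42.3 (median 34.4) in lung and 0 in blood.

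Endothelial genes were higher in lung in 18 of 18 tested (median log2 8.49). Tek, the angiopoietin receptor, stood at 489 to 580.3 (median 540.0) in lung and 1.23 to 1.93 (median 1.442) in blood (log2 8.42 ± 0.10, adjusted p = 2.21e-18). Kdr, the main receptor for VEGF, stood at 439.6 to 548 (median 498) and 4.7 to 7.7 (median 6.31) (log2 6.31 ± 0.11), and Cdh5, the endothelial cadherin, at 319 to 373 (median 340.3) and 0.0948 to 0.723 (median 0.306) (log2 9.89 ± 0.15). Vwf and Pecam1 differed least of the list, and their cell source in blood was not tested. Vwf, von Willebrand factor, stood at 532 to 614 (median 560.4) in lung and 127 to 201 (median 172) in blood (log2 1.75 ± 0.10), and the adhesion molecule gene Pecam1 at 199 to 241 (median 227) and 74.1 to 78.0 (median 77.3) (log2 1.54 ± 0.049).

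Connective tissue genes were nearly absent from blood. Of 15 fibroblast, pericyte and smooth muscle genes tested, 15 were higher in lung and 11 were lung-restricted (median log2 11.33, or 9.68 with genes at 0 in blood at their bound). Col3a1, a fibrillar collagen chain, stood at 576 to 772 (median 638) in lung with 10 blood counts (log2 11.85 ± 0.22), and Col1a1 at 148 to 172 (median 163) with 1 blood count, a ratio of 9650.0-fold (95% counting interval 1732 to 381152). Pdgfra, the growth factor receptor of alveolar fibroblasts, and Dcn, the proteoglycan decorin, had no blood count and were at least 686-fold and 456-fold higher in lung. All 16 basement membrane and elastic fibre genes tested were higher in lung. Col4a1, a chain of the main basement membrane collagen, stood at 532 to 575 (median 565) in lung and 0.997 to 2.01 (median 1.67) in blood (log2 8.45 ± 0.10). Ltbp4, an elastic fibre protein, stood at 480.0 to 531 (median 506) and 0.418 to 1.9 (median 1.24) (log2 8.64 ± 0.13).

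**Figure D3:**
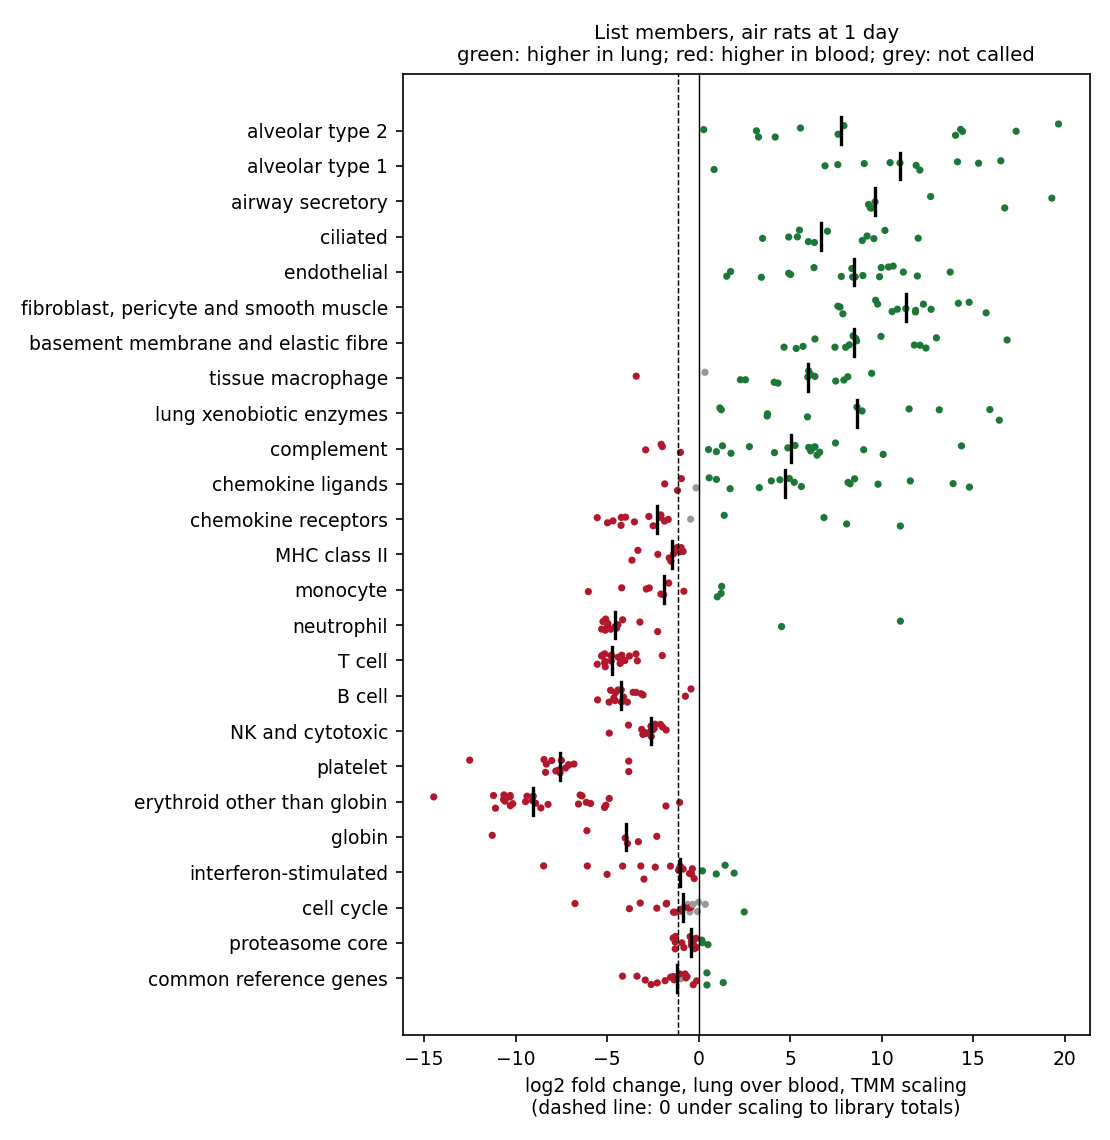
Log2 fold change, lung over blood (x axis, TMM scaling), of every tested member of 25 gene lists (rows). Points are genes, black bars are list medians, green is called higher in lung, red higher in blood and grey not called. The dashed line shows where 0 would lie under library totals, and the reference, proteasome, cell cycle and interferon lists straddle it.

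Enzymes that oxidise or conjugate foreign compounds were higher in lung in 11 of 11 tested. Fmo2, the flavin monooxygenase of lung, stood at 753 to 923.8 (median 824) with 5 blood counts (log2 13.16 ± 0.19). Ces1d, a carboxylesterase, stood at 549 to 642 (median 614) in lung with 12 blood counts (log2 11.51 ± 0.25). Por, the reductase that feeds electrons to cytochromes P450, was present in both tissues, at 99.4 to 136 (median 106) in lung and 46.8 to 54.9 (median 49.2) in blood (log2 1.17 ± 0.076). Cyp1a1, the enzyme known for induction by aromatic hydrocarbons, had 11 lung counts in all and was not tested.

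Macrophage genes gave a divided picture. Of 14 tested, 12 were higher in lung, Itgax was higher in blood and Cd68 was not called. Mrc1, the mannose receptor, stood at 124 to 194 (median 168) in lung and 1.461 to 3.37 (median 2.68) in blood (log2 5.97 ± 0.15, adjusted p = 3.88e-15). The complement gene C1qa, made by resident macrophages, stood at 28.4 to 34.5 (median 30.0) in lung and 0 to 1.04 (median 0.209) in blood (log2 6.36 ± 0.31). Gpnmb was present in both, at 416 to 798 (median 546) and 87.3 to 115 (median 94.7) (log2 2.57 ± 0.14). Itgax, the CD11c integrin chain, stood at 25.6 to 31.0 (median 28.7) in lung and 266 to 357 (median 285) in blood (log2 -3.40 ± 0.089). Cd68, a lysosomal glycoprotein, overlapped at 43.2 to 78.6 (median 52.1) and 30.3 to 62.8 (median 41.2) (log2 0.35 ± 0.17, adjusted p = 0.0609, with library totals it was called higher in lung). Marco, a scavenger receptor, had 2 lung counts and 0 blood counts in all. Lyz2, the lysozyme of macrophages and monocytes, stood at 15662 to 19204 (median 16237) in lung and 6466 to 7963 (median 7055) in blood (log2 1.23 ± 0.078, adjusted p = 4.34e-10), and it made up most of the summed monocyte list, which in lung reached 196% ± 15.6 of the blood level (SD, n = 6).

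The other monocyte genes mostly leaned to blood: 8 of 11 were higher there and 3 (Cd14, Cd300lf and Lyz2) in lung, with 6 and 4 under library totals. F13a1, the coagulation factor XIII A chain, stood at 266 to 384 (median 316) in blood and 3.91 to 5.75 (median 4.89) in lung (log2 -6.02 ± 0.13). F13a1 was the lowest of the list, whose median was -1.90, and its cell source was not tested. Cd14, the co-receptor for bacterial lipopolysaccharide, stood at 20.8 to 23.9 (median 22.7) in lung and 7.93 to 16.1 (median 9.63) in blood (log2 1.03 ± 0.14). Csf1r, the receptor for macrophage colony-stimulating factor, was higher in blood with TMM (log2 -0.80 ± 0.13) and lay at 0.35 with library totals.

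Neutrophil genes were higher in blood in 13 of 15 tested (median log2 -4.56). S100a8 and S100a9, the calprotectin subunits, stood at 696 to 854 (median 764) and 1655 to 2109 (median 1879.7) in blood and at 12.3 to 30.7 (median 19.4) and 35.3 to 76.7 (median 47.2) in lung (log2 -5.29 ± 0.21 and -5.22 ± 0.19, adjusted p = 1.13e-12 and 4.26e-13). Csf3r, the receptor for granulocyte colony-stimulating factor, stood at 314 to 434 (median 415) in blood and 12.1 to 29.7 (median 24.3) in lung (log2 -4.15 ± 0.19). Cxcr2, the main receptor for neutrophil chemokines, stood at 207 to 300.1 (median 261) in blood and 4.9 to 11.3 (median 8.57) in lung (log2 -4.97 ± 0.18). Its relative Cxcr1 did the opposite: it stood at 10.5 to 21.2 (median 15.1) in lung and had no count in any blood library, at least 50.6-fold higher in lung. Reads of these similar receptor genes can be hard to tell apart. The other gene on the lung side was Lcn2, lipocalin 2, which epithelium also makes, at 2.28 to 4.45 (median 3.98) in lung and 0 to 0.283 (median 0.157) in blood. The azurophil granule genes Mpo, Elane and Prtn3, which are transcribed in marrow precursors, had 3, 42 and 1 blood counts in all.

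Lymphocyte genes were higher in blood in every case tested: 19 of 19 T cell, 17 of 17 B cell and 15 of 15 NK and cytotoxic genes, with median log2 fold changes of -4.73, -4.22 and -2.60. With library totals the B cell genes Bank1 and Ebf1 turned to lung and the other 49 stayed on the blood side. Cd3e, a chain of the T cell receptor complex, stood at 196 to 261 (median 253) in blood and 5.2 to 9.3 (median 6.6) in lung (log2 -5.13 ± 0.12, adjusted p = 1.83e-15). The cytotoxic lineage gene Cd8a stood at 257 to 286 (median 267) and 12.6 to 19.1 (median 17.2) (log2 -4.03 ± 0.089), and Cd4, which rat monocytes and macrophages also express, at 207 to 287 (median 237) and 54.4 to 64.4 (median 61.1) (log2 -1.98 ± 0.074). Ms4a1, which encodes the B cell antigen CD20, stood at 38.2 to 62.3 (median 50.6) in blood and 1.93 to 4.46 (median 2.54) in lung (log2 -4.22 ± 0.16). Among cytotoxic genes, Nkg7 stood at 69.1 to 126 (median 107) and 14.1 to 22.7 (median 19.4) (log2 -2.49 ± 0.15), perforin (Prf1) at 239 to 369 (median 345) and 39.6 to 62.2 (median 56.8) (log2 -2.60 ± 0.12) and granzyme B (Gzmb) at 33.7 to 55.6 (median 49.3) and 9.58 to 20.4 (median 13.2) (log2 -1.77 ± 0.18).

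MHC class II genes, which present antigen on B cells, dendritic cells and macrophages, were present in both tissues. All 10 were higher in blood with TMM (median log2 -1.43), and with library totals 4 were higher in blood and 1 (RT1-Bb) in lung. Cd74, the invariant chain, stood at 1599 to 2408 (median 2286) in blood and 890.4 to 1065 (median 964) in lung (log2 -1.17 ± 0.093, adjusted p = 7.88e-09, and -0.040 with library totals). The peptide editing genes RT1-DOa and RT1-DOb, known from B cells, differed most, RT1-DOb standing at 45.9 to 55.8 (median 52.3) and 3.44 to 4.51 (median 4.24) (log2 -3.64 ± 0.071).

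Most mast cell and eosinophil genes had too few counts to be tested. Of 8 mast cell genes 3 passed the filter: Kit, a receptor of mast cells and other progenitors, stood at 155 to 187 (median 179) in lung and 1.461 to 4.94 (median 3.997) in blood (log2 5.64 ± 0.15), Ms4a2 was higher in blood (log2 -2.95 ± 0.19) and Cpa3 was not called. The eosinophil receptor gene Ccr3 stood at 50.6 to 67.6 (median 54.0) in blood and 1.29 to 3.18 (median 2.24) in lung (log2 -4.67 ± 0.14), and the granule genes Epx and Prg3 had 6 blood counts each in all.

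Platelet genes were higher in blood in 15 of 15 (median log2 -7.56). Itga2b, the alpha chain of the fibrinogen receptor, stood at 1362 to 2129.8 (median 1672) in blood and 4.17 to 6.24 (median 5.74) in lung (log2 -8.32 ± 0.16, adjusted p = 2.40e-16). Pf4, platelet factor 4, stood at 881 to 1302 (median 1032) and 6.85 to 9.88 (median 7.5) (log2 -7.09 ± 0.14, adjusted p = 2.40e-16), and the C-type lectin receptor gene Clec1b at 578 to 854 (median 691) and 1.25 to 2.79 (median 1.94) (log2 -8.44 ± 0.16). Gp1bb, a chain of the von Willebrand factor receptor, had 6 lung counts in all against 16965 in blood (log2 -12.50 ± 0.30). Itgb3 and P2ry12, which cells outside blood also express, differed least of the list (log2 -3.81 ± 0.10 and -3.81 ± 0.15).

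Erythroid genes other than globin were higher in blood in 27 of 27 with TMM and 26 with library totals, with the lowest median of all lists (log2 -9.03). Alas2, the first enzyme of haem synthesis in red cells, stood at 31971 to 48852 (median 34988) in blood and 21.1 to 26.8 (median 24.4) in lung (log2 -10.57 ± 0.17, adjusted p = 3.87e-17). The blood library of animal 40 was the high one, and without it the log2 fold change was -10.50. Slc4a1, the anion exchanger of the red cell membrane (band 3), stood at 3524 to 6379.6 (median 4612) and 2.75 to 4.35 (median 3.9) (log2 -10.29 ± 0.19, adjusted p = 1.89e-16). Bpgm, which makes the 2,3-bisphosphoglycerate that lowers the oxygen affinity of haemoglobin, stood at 10780.5 to 17208 (median 12066) and 24.6 to 28.1 (median 26.7) (log2 -8.90 ± 0.15). Fech, the last enzyme of haem synthesis, stood at 4348 to 7324 (median 5211) and 15.2 to 19.8 (median 18.6) (log2 -8.22 ± 0.16), and the blood group gene Rhd at 933 to 1584 (median 1218) and 0.584 to 0.891 (median 0.761) (log2 -10.65 ± 0.18). Tfrc, the transferrin receptor of all dividing cells, differed least, at 43.4 to 57.8 (median 47.7) and 20.9 to 25.7 (median 24.6) (log2 -1.03 ± 0.079, and 0.13 with library totals).

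The blood-side genes with the largest fold changes, taken by the same rule as on the lung side, included genes outside the lists. Cd52, a small surface antigen known from lymphocytes, stood at 1864 to 2872 (median 2130.2) in blood and 0.407 to 0.836 (median 0.65) in lung (log2 -11.78 ± 0.18). The lowest T cell, B cell and cytotoxic list genes lay at -5.53, -5.52 and -4.88. The source of the Cd52 difference was not tested. Lgals5, a rat galectin known from reticulocytes, stood at 6388 to 10466 (median 7029.6) and 1.63 to 3.08 (median 2.21) (log2 -11.65 ± 0.22). Rec114, known for meiotic recombination, stood at 327 to 468 (median 349.5) and 0.0509 to 0.223 (median 0.149) (log2 -11.30 ± 0.17, adjusted p = 2.52e-17). The rule asked for groups that do not overlap, so their separation in all 12 libraries is no separate result.

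Promoter sequences are shown for erythroid and platelet genes, for which GATA1 is a known shared regulator. Whether GATA1 had a part in the level of these genes here was not tested. RefSeq's promoter table (GRCr8) held 17 of the 28 erythroid genes other than globin, 11 of the 15 platelet genes and 10395 of the genes tested by symbol. Within the 250 bases before each start, the letters AGATAA or TGATAA, forms of the GATA motif, were searched on both strands, and the 2 patterns, which differ in their first letter, cannot match at the same place on 1 strand. They occurred in 11 of the 17 erythroid promoters (64.7%) and 5 of the 11 platelet promoters (45.5%), against 9.48% of those of genes tested and 16.6% of all 27457 in the table. Other lists held them in 3 of 11 endothelial, 3 of 14 T cell, 2 of 9 airway secretory and 1 of 9 B cell promoters. The share was 109 of 1086 in lung-restricted genes, 26.5% in blood-restricted genes (13 of 49, of which 12 have locus names), 21.4% in T cell genes (3 of 14) and 11.1% in alveolar type 2 genes (1 of 9). Of the 17, the promoters of Bpgm, Epb42, Gata1, Hemgn, Kel and Tfrc held neither. A match is a run of letters and not a shown binding site. The 120 bases before the start of 5 genes are printed 5′ to 3′ on the gene's strand, with the matches in capitals (TTATCT and TTATCA are the motifs read on the other strand). These 5 were chosen after the matches were found, to show erythroid and platelet promoters with the letters near the start.
Add2, the beta adducin of the red cell skeleton, chr4:120054758-120054877, plus strand: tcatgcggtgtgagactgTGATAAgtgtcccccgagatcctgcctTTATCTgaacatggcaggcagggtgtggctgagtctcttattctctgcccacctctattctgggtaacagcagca
Klf1, an erythroid transcription factor, chr19:40158652-40158771, minus strand: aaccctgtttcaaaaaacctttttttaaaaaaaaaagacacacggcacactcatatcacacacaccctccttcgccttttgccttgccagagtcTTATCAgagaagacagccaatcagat
Rhd, a red cell membrane protein, chr5:152371080-152371199, plus strand: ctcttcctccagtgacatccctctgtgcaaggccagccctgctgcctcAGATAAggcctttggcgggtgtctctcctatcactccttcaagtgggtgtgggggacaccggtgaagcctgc
Itga2b, the platelet integrin chain, chr10:87925834-87925953, minus strand: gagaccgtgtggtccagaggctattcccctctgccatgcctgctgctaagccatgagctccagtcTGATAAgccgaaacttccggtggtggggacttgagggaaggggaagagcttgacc
Gp1ba, a platelet receptor for von Willebrand factor, chr10:55851439-55851558, plus strand: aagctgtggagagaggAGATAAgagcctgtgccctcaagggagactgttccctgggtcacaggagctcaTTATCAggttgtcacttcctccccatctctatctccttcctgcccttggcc

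In these 5 promoters the matches began between 26 and 104 bases before the start, and Add2 and Gp1ba held 1 of each pattern. On the lung side, the letters CAAGTG, a core that NKX2-1 is known to bind, occurred within 250 bases in 2 of 9 alveolar type 2 promoters (Lamp3 and Sftpa1) and 3 of 9 airway secretory promoters (Aldh1a1, Scgb1a1 and Scgb3a1). Lists of the blood side held them too: 2 of 9 B cell, 3 of 14 T cell and 3 of 17 erythroid promoters. They occurred in 12.5% of lung-restricted, 6.12% of blood-restricted and 9.39% of tested genes' promoters. Counts of this size describe the promoters in the table.

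Globin genes, whose near-identical copies make the estimate of any 1 copy uncertain, did not all behave alike. All 6 tested were higher in blood. Hba1, an adult alpha globin, stood at 19272 to 33857 (median 21413) in blood and 1278 to 1742 (median 1522) in lung (log2 -4.004 ± 0.16, adjusted p = 1.90e-12). Hbb, an adult beta globin, stood at 13692, 3059, 3843, 13980.3, 3007 and 3640.5 in the blood of animals 37 to 42 and at 1187 to 1646 (median 1389) in lung (log2 -2.28 ± 0.40, adjusted p = 6.55e-05). Animals 37 and 40 had over 3 times the blood level of the others, and without either of them the log2 fold change was -1.99 and -1.97. By contrast Hbq1b, the theta globin, stood at 559.5 to 866 (median 668) in blood and 0.158 to 0.509 (median 0.274) in lung (log2 -11.27 ± 0.20), and the embryonic globin gene Hbe1 at 9.77 to 15.5 (median 13.7) and 0.0835 to 0.279 (median 0.178) (log2 -6.10 ± 0.20). The removal step was aimed at alpha and beta globin mRNA in blood, and its part in this difference between globin genes was not tested.

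The lung level of blood cell lists, as a percentage of the same animal's blood level, differed between lists. It was 0.439% ± 0.078 for the erythroid genes other than globin and 0.812% ± 0.132 for platelet genes (SD, n = 6 animals). It was 3.7% ± 0.82 for neutrophil genes, 6.5396% ± 0.792 for T cell genes, 9.57% ± 3.27 for globins, 10.3% ± 1.436 for B cell genes and 14.5% ± 3.55 for cytotoxic genes. It reached 44.8% ± 5.9 for MHC class II genes, 196% ± 15.6 for monocyte genes and 306% ± 50.03 for macrophage genes. For the eosinophil and basophil genes it was 12.7% ± 1.433. Lyz2 made up most of the monocyte sum, and 8 of the 11 monocyte genes tested were higher in blood. The ranges over animals of the erythroid (0.313% to 0.521%), platelet (0.655% to 0.996%) and neutrophil (2.91% to 5.13%) lists did not overlap each other. The T cell, globin, B cell and cytotoxic ranges overlapped their neighbours. These are levels on the TMM scale, and with library totals they would be about 2.22-fold higher.

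**Figure D4:**
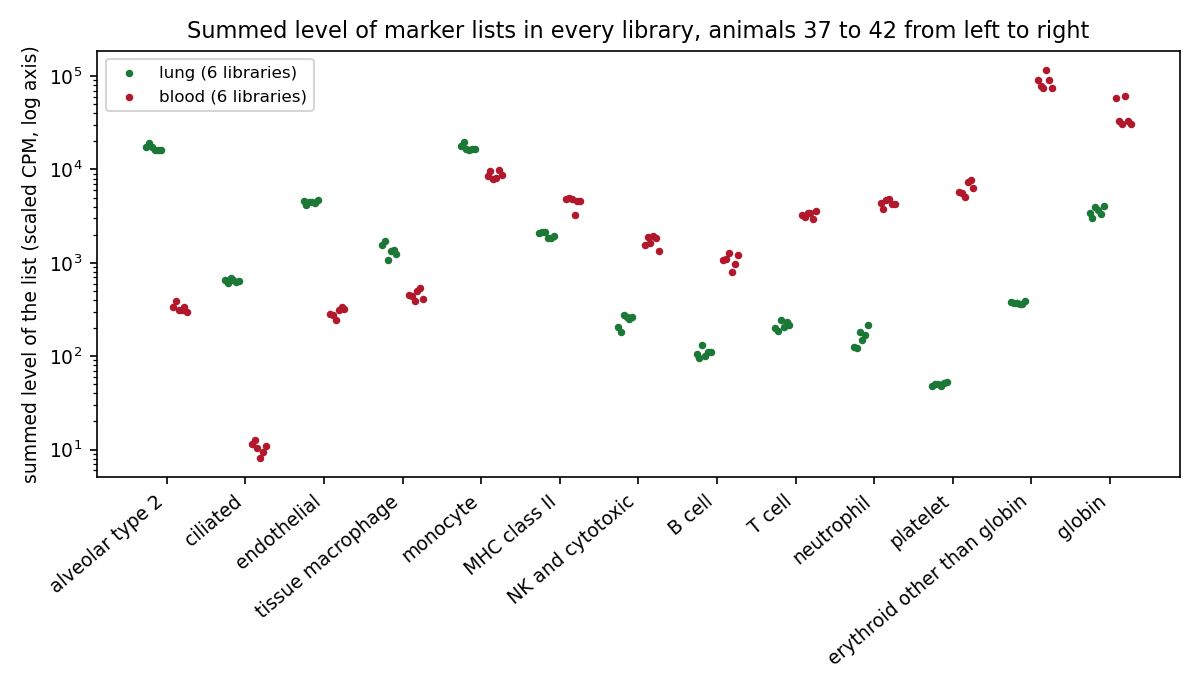
Summed level of 13 marker lists in every library, in scaled CPM on a log axis, lung in green and blood in red, animals 37 to 42 from left to right. The erythroid and platelet lists show the widest gaps toward blood, and the globin list is higher in the blood of animals 37 and 40.

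Chemokine genes divided by role. Of 20 ligand genes tested 16 were higher in lung, and of 18 receptor genes 13 were higher in blood. Cxcl12, which holds leukocytes through Cxcr4, stood at 76.8 to 90.8 (median 85.0) in lung and 0 to 0.952 (median 0.0943) in blood (log2 8.17 ± 0.25), while Cxcr4 stood at 59.2 to 83.5 (median 75.0) in lung and 169 to 327 (median 288) in blood (log2 -1.86 ± 0.13). Ccl21, a ligand of Ccr7 made by lymphatic endothelium, stood at 104 to 124 (median 114) in lung with no blood count, and Ccr7 stood at 176 to 254 (median 203) in blood and 3.7 to 6.13 (median 4.18) in lung (log2 -5.53 ± 0.13). Cx3cl1, the membrane-bound fractalkine, stood at 31.6 to 42.8 (median 35.8) with 2 blood counts, and its receptor Cx3cr1 at 48.6 to 96.8 (median 62.9) in blood and 14.7 to 18.0 (median 16.3) in lung (log2 -2.06 ± 0.15). Cxcl3, a neutrophil chemokine, stood at 181 to 242 (median 208) in lung with no blood count. Exceptions ran both ways. The ligands Ccl3, Ccl4 and Cxcl10 were higher in blood with TMM, while with library totals Ccl3 and Cxcl10 lay at 0.22 and 0.0059. Ccl4, a chemokine ligand made by activated leukocytes, stood at 11.7 to 20.5 (median 16.4) in blood and 4.09 to 4.95 (median 4.5) in lung (log2 -1.85 ± 0.13). The atypical receptor genes Ackr1, Ackr2 and Ackr4, scavengers on endothelium and stroma, were higher in lung, Ackr4 at 23.8 to 29.7 (median 25.8) with 13 blood counts (log2 6.85 ± 0.22), as was Cxcr1.

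Complement genes were mostly on the lung side: of 22 tested, 18 were higher in lung. Cfb, factor B of the alternative pathway, stood at 408 to 562 (median 436) in lung and 2.82 to 6.63 (median 5.54) in blood (log2 6.47 ± 0.15), and the terminal component gene C7 at 478 to 526 (median 516) with 1 blood count, a ratio of 30482-fold (95% counting interval 5471 to 1203990). The central component C3 was present in both, at 205 to 323 (median 246) and 106 to 161 (median 130.4) (log2 0.98 ± 0.12). The inhibitor gene Serping1 stood at 193 to 221 (median 213) in lung with 11 blood counts (log2 10.09 ± 0.14). The anaphylatoxin receptor gene C5ar1 stood at 123 to 136 (median 132) in blood and 28.9 to 34.6 (median 31.7) in lung (log2 -2.04 ± 0.055), and Cfp, properdin, at 104 to 154 (median 120.1) and 12.4 to 19.4 (median 16.5) (log2 -2.89 ± 0.11). C3ar1 and Cfd were the other 2 on the blood side, and Cfd turned to 0.16 with library totals.

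Transcription factor genes followed their lineages. All 12 lung lineage factors tested were higher in lung and 8 had no blood count. Nkx2-1, the regulator of lung epithelium, stood at 117 to 132 (median 125) and was at least 409.6-fold higher. Foxf1, of lung mesenchyme and endothelium, stood at 127 to 194 (median 153) and was at least 505-fold higher, and Tbx4, of lung mesenchyme, stood at 111 to 120.5 (median 115) with 2 blood counts. All 19 blood lineage factors tested were higher in blood with TMM, and 18 were with library totals. Klf1, of red cells, stood at 368 to 610.2 (median 462) in blood and 0.254 to 0.669 (median 0.39) in lung (log2 -10.15 ± 0.19). Nfe2 and Lyl1, of the erythroid and megakaryocytic lineages, stood at 676 to 972 (median 756) and 730.3 to 1099.8 (median 839) in blood (log2 -7.05 ± 0.15 and -7.25 ± 0.12). Spi1, which encodes PU.1 of myeloid and B cells, was closer, at 116 to 146 (median 128) in blood and 34.8 to 43.1 (median 38.3) in lung (log2 -1.75 ± 0.066). Ebf1, of B cells and of stromal cells, differed least and turned to 0.72 with library totals (log2 -0.41 ± 0.14, adjusted p = 0.012).

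Hox genes, which record position along the body axis, were mostly lung genes. Of 11 tested 10 were higher in lung, and all 10 lie in the A and B clusters. Hoxb2 stood at 9.87 to 11.4 (median 10.5) and Hoxa3 at 10.1 to 14.8 (median 14.1) in lung, with 0 and 3 blood counts. Hoxc6 was the exception, at 2.81 to 4.34 (median 3.97) in blood and 0.129 to 0.56 (median 0.269) in lung (log2 -3.68 ± 0.24, adjusted p = 6.26e-10). A further 14 Hox genes had too few counts to be tested.

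The shared genes numbered 10420 with at least 1 CPM in all 12 libraries. They were 74.1% of the 14056 genes at that level in every lung library and 95.4% of the 10925 in every blood library, and they held 81.8% of lung and 98.3% of blood counts. CPM here is from library totals without TMM factors, so a gene at equal scaled CPM reached the threshold more easily in lung. Shared did not mean equal: 4046 were called higher in lung, 5060 higher in blood and 1314 neither. For 5462 (52.4%) the 95% interval of the fold change lay inside 2-fold, among them 4164 with a called difference. With library totals the split was 7838, 1794 and 788. The 10 genes of at least 100 CPM with the smallest difference were Akap13, Aldh2, Calm2, Cd164, Cd48, Ddb1, Diaph1, Eif4h, Marf1 and Nisch. Aldh2, the mitochondrial aldehyde dehydrogenase, stood at 265 to 309 (median 286) in lung and 263 to 307 (median 287) in blood (log2 0.0046 ± 0.052), and Calm2, a calmodulin gene, at 196 to 222 (median 205) and 194 to 221 (median 209) (log2 -0.0088 ± 0.047). With library totals these genes lay at 1.12 to 1.18.

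Genes commonly used as internal references were not equal between the tissues. Of 20 tested, 16 were higher in blood, 3 (Tbp, Sdha and Polr2a) in lung and Hprt1 was not called, and with library totals 10 were higher in blood and 8 in lung. Actb, cytoplasmic actin, stood at 3269 to 3625 (median 3401) in blood and 1321 to 1465 (median 1376) in lung (log2 -1.31 ± 0.054, adjusted p = 1.87e-12), and Gapdh, a glycolytic enzyme, at 1202 to 1582 (median 1315) and 361 to 421 (median 382) (log2 -1.82 ± 0.076, adjusted p = 2.46e-12). B2m, the light chain of MHC class I, stood at 13309.7 to 19532 (median 14793) and 2015 to 2189.7 (median 2074) (log2 -2.91 ± 0.095, adjusted p = 1.18e-13). Tbp, the TATA-binding protein, stood at 9.69 to 12.2 (median 11.01) in lung and 7.3 to 9.15 (median 7.83) in blood (log2 0.46 ± 0.085, adjusted p = 1.16e-04), and Ppib at 98.5 to 112 (median 102) and 103 to 117 (median 113) (log2 -0.10 ± 0.046, adjusted p = 0.0457, and 1.04 with library totals). Hprt1 ranged from 0 to 15.0 in lung and from 0 to 32.9 in blood, so its level in single libraries is uncertain.

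Proteasome core genes, a complex that all cells share, differed in direction by scaling: 14 of 17 were higher in blood and 3 in lung with TMM (median log2 -0.39), and 1 and 13 with library totals (median 0.77). Within them the 3 subunits of the immunoproteasome, which leukocytes carry, lay on the blood side on both scales in sign: Psmb8 stood at 137 to 154 (median 149) in blood and 49.7 to 61.0 (median 56.9) in lung (log2 -1.39 ± 0.055), Psmb9 at 125 to 146 (median 139) and 54.0 to 63.1 (median 55.8) (log2 -1.27 ± 0.051) and Psmb10 at 86.8 to 104 (median 96.3) and 37.4 to 42.0 (median 41.0) (log2 -1.25 ± 0.049). Their constitutive counterparts Psmb5 and Psmb7 were closer (log2 -0.12 ± 0.045 and -0.39 ± 0.056, and 1.03 and 0.77 with library totals), and Psmb6 was not (log2 -1.27 ± 0.080).

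In 22 pairs, a gene taken as broadly expressed was set beside a related gene known from blood cells. The label is loose for Gata6, which stands on the lung lineage list, and Gata6 and Ank3 were lung-restricted. The blood cell form was higher in blood in 22 of 22 pairs, against the background of 38.2%. The broad member was higher in lung in 15, higher in blood in 6 and not called in 1 (Prkca), and in all 22 pairs the broad member lay further toward lung, by a median of 5.74 on the log2 scale. That difference within a pair does not depend on the scaling. Alas1, the haem synthesis enzyme of most tissues, stood at 60.0 to 81.5 (median 67.9) in lung and 22.1 to 29.1 (median 23.6) in blood (log2 1.49 ± 0.084), against -10.57 for Alas2. In the membrane skeleton, the ankyrin gene Ank3 lay at 9.58 ± 0.18 and Ank1 at -6.36 ± 0.20, and the spectrin gene Sptbn1 at 3.51 ± 0.070 and Sptb at -6.13 ± 0.15. Among actin and adhesion proteins, the plastin gene Pls3 lay at 9.53 ± 0.11 and Lcp1, the plastin of leukocytes, at -1.95 ± 0.055, and the kindlin gene Fermt2 at 7.33 ± 0.062 and Fermt3, needed for integrin activation in blood cells, at -2.71 ± 0.044. The smallest difference was that of the small GTPase genes Rac1 (-1.12 ± 0.069, and 0.042 with library totals) and Rac2 (-3.04 ± 0.062). With library totals 5 of the 6 broad members on the blood side turned to lung, Tubb5 at 0.46, Coro1b at 0.37, Arhgdia at 0.98, Plcg1 at 0.87 and Rac1 as above, and Add3 stayed on the blood side at -0.39. The pairs were chosen with the roles of the blood forms known, so their direction is a description.

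**Figure D5:**
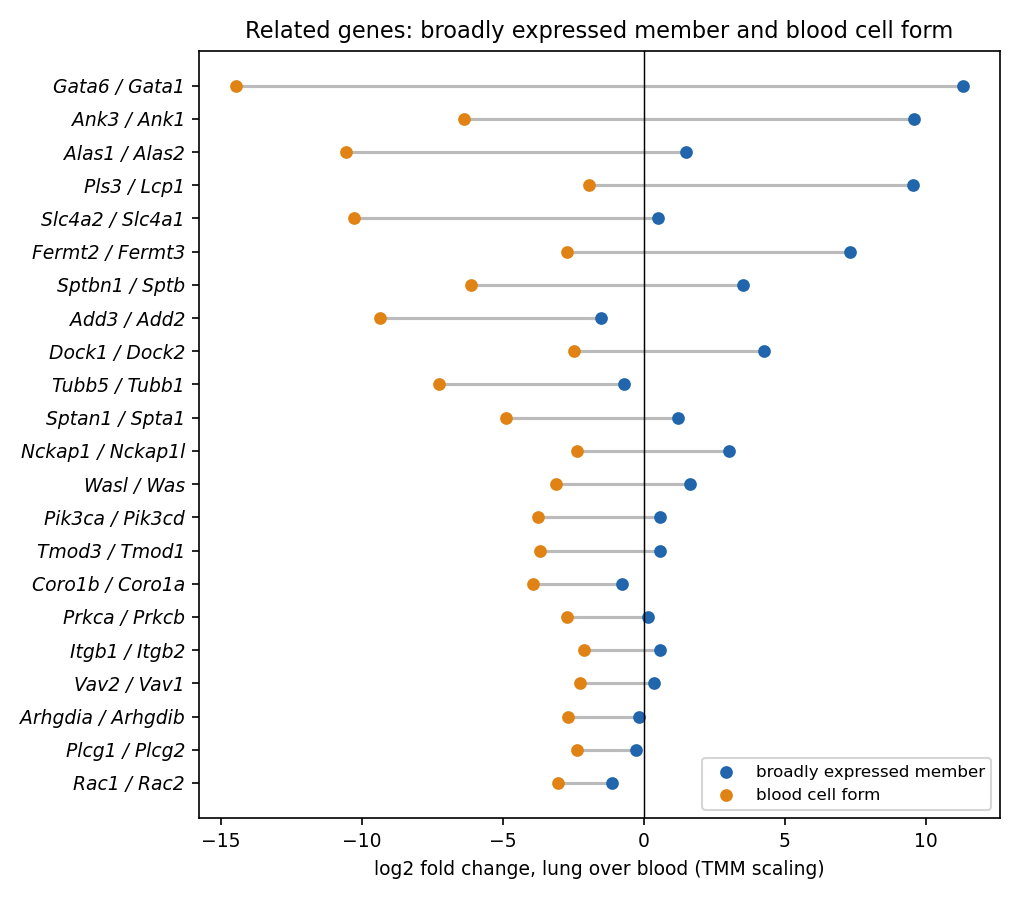
Lung over blood log2 fold change (TMM scaling) of 22 pairs of a gene taken as broadly expressed (blue) and its blood cell form (orange). A line joins each pair, and pairs are ordered by the difference. Every orange point lies below 0 and left of its partner, and the smallest gap is that of Rac1 and Rac2. The gap of Gata6 and Gata1, each at 0 counts in all libraries of 1 tissue, is a fitted value and not a bound.

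Interferon-stimulated genes lay on both sides of 0. With TMM 16 of 20 were higher in blood and 4 (Bst2, Ddx58, Ifi27 and Mx2) in lung, while with library totals 8 and 10 were, so the direction of the list depends on the scaling. Rsad2, the antiviral protein viperin, stood at 3374 to 6147 (median 4031) in blood and 8.91 to 14.6 (median 12.8) in lung (log2 -8.46 ± 0.21, adjusted p = 3.44e-15), and Irf7, the transcription factor that amplifies interferon production, at 2512 to 4447 (median 2976) and 41.4 to 53.3 (median 45.6) (log2 -6.08 ± 0.15). Ifit3 stood at 389 to 628 (median 460.5) and 21.4 to 34.6 (median 26.9) (log2 -4.15 ± 0.14). With another scaling Rsad2 stayed on the blood side and was -7.29 with library totals. Bst2, tetherin, stood at 207 to 228 (median 223) in lung and 40.2 to 75.2 (median 57.6) in blood (log2 1.95 ± 0.12). Irf9, a transcription factor of the interferon response, lay at -1.04 ± 0.042, and at 0.11 with library totals.

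Cell cycle genes were low in both tissues. Of 20 tested 13 were higher in blood, 1 (Cenpf) in lung and 6 were not called with TMM, and with library totals 6 were higher in blood and 9 in lung. Tk1, thymidine kinase, stood apart at 352 to 552 (median 427) in blood and 3.76 to 4.73 (median 3.87) in lung (log2 -6.75 ± 0.12, adjusted p = 1.52e-16). Mki67, a marker of cycling cells, stood at 10.3 to 23.1 (median 18.3) and 8.75 to 14.7 (median 12.5) (log2 -0.51 ± 0.18, and 0.66 with library totals), and Top2a, the topoisomerase of dividing cells, at 2.71 to 12.5 (median 7.08) and 5.4 to 8.85 (median 7.18) with no called difference (log2 -0.059 ± 0.33, adjusted p = 0.868).

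Some lists held markers known mainly from tissues other than lung and blood. In blood the liver genes summed to 13.8, 2.45, 4.38, 39.5, 3.62 and 0.0948 in animals 37 to 42, of which animal 40 was the highest, and in lung to 8.08 to 17.6 (median 12.9), where Serpina1 was the 1 gene tested. Of 7 adipocyte genes 3 were tested, and Fabp4, also an endothelial gene, stood at 9.8 to 15.7 (median 11.6) in lung. The heart muscle genes described above summed to as much as 144 in lung, and their sum in blood did not pass 0.529. Of the skeletal muscle genes Tnnt3 and Mylpf were tested, both were higher in blood, and the list summed to 9.58 to 11.8 (median 11.1) in blood and 1.96 to 5.4 (median 3.47) in lung.

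The animals of a tissue varied little. The common biological coefficient of variation was 0.0907 in lung and 0.103 in blood, and the median SD of log2 CPM over genes was 0.10 and 0.14. Among genes with a mean of at least 10 CPM, the largest SDs belonged to genes that switched between 0 and a clear level from library to library. In lung these were Aldh18a1, Dgcr2, Ebna1bp2 and Heatr1. Heatr1 and Aldh18a1 have 2 gene models each, and with both models summed Heatr1 stood at 18.2 to 22.1 in lung and Aldh18a1 at 13.4 to 16.6, so the values of a single model are uncertain. When at least 10 counts in every library were also asked for, a rule added after these values were seen, the most variable lung genes were M6pr, Zbtb16, Elmod2, Cyp2a3 and Fos. M6pr, a mannose 6-phosphate receptor, stood at 126, 116, 128, 131, 6.23 and 10.7 in the lungs of animals 37 to 42, low in animals 41 and 42. Zbtb16, a transcription factor gene induced by glucocorticoids, stood at 4.72, 3.14, 4.4, 43.5, 40.6 and 30.1 in the same order, so that 3 animals lay under 5 and 3 over 30. Cyp2a3, a cytochrome P450 of lung and nose, stood at 8.1, 6.7, 45.02, 42.4, 15.4 and 42.5, high in animals 39, 40 and 42. Fos, an immediate-early gene, stood at 12.0, 14.8, 51.9, 9.06, 12.96 and 56.9, high in animals 39 and 42. In blood the list was Sbk1, Hbb, Hiat1, M6pr and Hbb-b1.

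The tissue difference was then measured in the 3 other pairs of groups, whose animals had no part in the choice of restricted genes. Of the 1752 lung-restricted genes, 1533 (87.5%) met the same rule in silica rats at 1 day, 1575 (89.9%) in air rats at 6 months (5 lung libraries) and 1588 (90.6%) in silica rats at 6 months. Of the 85 blood-restricted genes, 58 (68.2%), 74 (87.1%) and 64 (75.3%) did. Of the 7693 genes called higher in lung in air rats at 1 day, 93.0%, 91.6% and 91.5% were called higher in lung in those groups. Of the 5823 called higher in blood, 94.9%, 89.9% and 87.6% were called higher in blood. Over all genes tested in those groups, 7566 of 15316, 7483 of 15076 and 7645 of 14987 were called higher in lung. In blood 6088, 5683 and 5488 were called higher. Lung calls that turned to blood numbered 26, 70 and 77, and blood calls that turned to lung 25, 17 and 39. The silica groups at 1 day share the tables of these air groups but not their libraries.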

How the data were processed

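The 12 libraries of air rats at 1 day hold gene expression of lung (6) and of whole blood (6). Per the labels' protocols, the library kit was a stranded one for mRNA, and alpha and beta globin mRNA was removed from blood RNA only. Salmon 1.10.1, STAR 2.6.1d, Trim Galore 0.6.7 and cutadapt 3.4 stand in the submitters' processing notes, beside bcl2fastq 2.19 and the build Rnor_6.0. The deposited tables hold estimated counts (expected counts) per gene, not normalized. These were rounded here and joined on the gene identifier, with 0 columns unmatched. Such counts split reads between similar genes and between gene models of 1 name (266 names stood on more than 1 line), and where a name had 2 models the first is given unless stated.

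The test was edgeR 4.0.16 in R 4.3.3 (quasi-likelihood, threshold 0.05 after Benjamini-Hochberg adjustment over all genes tested, a minimum count of 10 in filterByExpr and TMM factors). Only these 12 libraries entered, and the SE was derived from the fold change and its F statistic. The 2-fold test was glmTreat. Log2 fold changes are lung over blood. Floors are 3 counts per library and, with the intervals, cover counting error only. For 6 against 6 the exact permutation test compared single values per library. Alternatives were DESeq2 1.42.0, limma-voom (limma 3.58.1), RLE, upper-quartile or no factors, other filters and minimums, thinned libraries, summed gene models, a robust fit, silica libraries in the same fit, genes of red cells left out, and each library left out. The fit was tested on simulated data. Promoter sequences are RefSeq's (GRCr8), and no other coordinate was used.

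The members and lists were chosen with earlier results of these data known. The 36 lists hold 522 genes, of which 504 were found by name and 438 were tested, and 25 stand on 2 or more lists. Genes were named by rule. The rule took the 10 largest fold changes in each direction among genes whose groups did not overlap, with a mean of at least 50 CPM. It also took the 3 members of each list with the highest mean, 24 markers always and both members of each pair. The 10 most alike genes of at least 100 CPM and the 5 most variable genes of each tissue at 10 CPM were added. So were the 10 restricted genes of each tissue with the highest level. Genes with a locus name were left out of the rules on fold change, likeness, variability and restriction. Other list members named in the report were chosen after their values were seen: Abca3, Ackr1, Ackr2, Ackr4, Bpifa1, Bst2, C1qa, C3, C3ar1, C5ar1, Ccl3, Ccl4, Cd14, Cd300lf, Cd68, Cd8a, Cdh5, Cenpf, Cfp, Cldn4, Clec1b, Cx3cl1, Cx3cr1, Cxcl10, Cxcl12, Cxcr1, Cyp1a1, Dcn, Ddx58, Ebf1, Elane, Epb42, Epx, F13a1, Fech, Gp1ba, Gzmb, Hbb-b1, Hbe1, Hopx, Hoxc6, Ifi27, Ifit3, Irf9, Itgax, Itgb3, Kdr, Klf1, Lamp3, Lcn2, Lpcat1, Mki67, Mpo, Muc5ac, Muc5b, Mx2, Myh6, Napsa, P2ry12, Polr2a, Por, Ppib, Prg3, Prtn3, Psmb10, Psmb5, Psmb6, Psmb7, Psmb9, RT1-DOa, RT1-DOb, Scgb3a1, Scgb3a2, Sdha, Serping1, Sftpd, Spi1, Tfrc and Top2a.

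Same-numbered lung and blood libraries were taken as the same animal, a reading of the titles that no label spells out. After subtraction of the tissue means, same-numbered libraries correlated from -0.029 to 0.107 across 10420 genes, and 1 of 6 was above 0.1. Shared cages and chambers are not given in the sources used here, so p-values measure the spread between these animals. A few genes that the rule or lists name are not reported here.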

Additional observations from a re-analysis of the deposited data

Results flagged for a closer look

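In 21 of 347 sets of 6 values (6.05%) the highest or lowest library lay apart from the other 5, with a gap of over 0.625 of the range. Chance gives about 1 in 20. The blood library of animal 40 gave 8 of the 21. It was high in the erythroid genes Alas2 (48900 scaled CPM, others 31971 to 37710), Bpgm (17200, others 10780.5 to 12837.5), Gata1 (297, others 131 to 164) and Lgals5 (10500, others 6388 to 7626). It was also high in the eosinophil receptor gene Ccr3 (67.6) and the proteasome gene Psma6 (130). It was low in the MHC class II genes Cd74 (1600, others 2189 to 2408) and RT1-Da (373, others 546 to 588). The TMM factor of this library was the lowest of the 12.

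The blood library of animal 38 was high in the lipase gene Lpl (5.08 scaled CPM) and low in the leukocyte plastin gene Lcp1 (1530, others 1587 to 1611). It was also high in Dgcr2 (53.6) and Ebna1bp2 (18.7), whose other blood values were 0 to 14.04 and 0. The blood library of animal 39 had 0 for the lipase gene Pnpla2, where the others stood at 93.4 to 139.

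The lung library of animal 39 was high in the B cell gene Ms4a1 (4.46 scaled CPM, others 1.93 to 2.72). It was low in the ankyrin gene Ank3 (57.2), the complement gene C7 (478) and the kinase gene Prkca (30.4). The lung library of animal 40 was low in the transcription factor gene Gata6 (15.4). That of animal 41 was low in the esterase gene Ces1d (549) and the replication clamp gene Pcna (35.5). The lung library of animal 42 was the deepest, with 25900000 counts against 12050300 to 16165300.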

How the results depend on the processing

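The choice of scaling and of thresholds moved the counts most. With library totals 11823 genes were called higher in lung and 2383 in blood, and 3080 shared genes had an interval inside 2-fold. Against a 2-fold change 4969 and 2814 were called. Genes restricted to lung and restricted to blood numbered 1021 and 28 at 5 CPM and 817 and 22 with a floor of 0 counts, and a floor of 10 counts gave 177 for blood. Leaving out 1 library gave 7625 to 7758 calls toward lung, 5773 to 5934 toward blood, 1757 to 1807 genes restricted to lung and 85 to 98 restricted to blood. With gene models of 1 name summed, added after the data were seen, the restricted sets held 1735 and 84 genes.

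With the animal as a replicate block 7648 and 5743 genes were called, and 199 of 199 named genes kept their call and direction. Of 6 lung libraries 4 correlated best with their own number.

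List medians turned with library totals for interferon (0.14), cell cycle (0.28) and proteasome genes (0.77). Those of lists with 1 to 3 tested genes turned with the silica libraries in the fit (mast cell -1.45, liver -0.63), with 1 library left out (list median log2: mast cell -0.0722 to 1.36, the lowest without blood 37) and without a filter (skeletal muscle 0.59, liver -2.46). With totals these genes turned to lung: Arhgdia 0.98, Bank1 0.42, Calm2 1.14, Ccl6 1.02, Cd164 1.13, Cd48 1.12, Cfd 0.16, Coro1b 0.37, Csf1r 0.35, Diaph1 1.13, Mcm7 0.38, Pcna 0.73, Plcg1 0.87, Psma6 0.77, Psmb1 0.24, Rac1 0.042, RT1-Bb 0.29, RT1-Da 0.18 and Tubb5 0.46. That scaling moves the median gene by 1.15. Over all alternatives, values of named genes stayed on their side of the threshold in 5071 cases, lost it in 25, gained it in 26 and turned in 19. Genes with under 3 counts per library cannot be told from 0 at this depth.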

Other observations

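Secretory genes of the airways beyond those described differed among the lungs in the same animals. Bpifb1, a secreted antimicrobial family member, stood at 2.3, 1.5, 10.03, 6.31, 2.52 and 7.24 scaled CPM in animals 37 to 42, and Scgb3a1, a secretoglobin, at 0.543, 0.43, 12.3, 9.41, 2.47 and 9.83. Cyp2f4, a cytochrome P450 of club cells, stood at 24.5, 14.7, 55.4, 52.6, 26.9 and 43.4. In these 3 genes, too, animals 39, 40 and 42 were the highest 3 of 6. Scgb1a1 did not split this way, at 4809, 3710.0, 6136, 4934, 4582 and 4614. The pattern was noticed in the data and was not tested.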
